A study of Mus musculus with 21 samples.

Results

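Podxl, C2cd4a, Cda and Plek2 are 4 mouse genes picked from RNA-seq of bone marrow c-kit+ cells because they were high in both genotypes that carry Jak2V617F. They are 4 of the 54532 genes counted, were found by gene name, and all 4 passed the filter on low counts. The cells were flushed from the femur and tibia of C57BL/6 mice, freed of red cells by lysis and enriched on beads against CD117, the protein product of Kit. There were 3 libraries of Asxl1-/-Jak2V617F, 3 of Jak2V617F, 2 of Asxl1-/- and 3 of WT. The first and the third genotype lack Asxl1, a chromatin regulator of the Polycomb system, and the first and the second carry the activated Jak2 kinase of myeloproliferative neoplasms. The labels give no age, sex, promoter or Cre driver, and do not say which part of Asxl1 was removed.

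Jak2 relays signals from the erythropoietin and thrombopoietin receptors to STAT transcription factors, among them STAT5, and the V617F form signals without the hormone. Podxl encodes podocalyxin, a sialomucin of the CD34 family that coats podocytes, vascular endothelium and some blood progenitors, and that appears on mouse erythroid progenitors under erythropoietic stress. Plek2 encodes pleckstrin-2, a membrane phosphoinositide-binding protein that protects the actin cytoskeleton of mouse erythroblasts. Cda encodes cytidine deaminase, which turns cytidine and deoxycytidine into their uridine forms and also inactivates drugs such as cytarabine. C2cd4a encodes a nuclear protein with a C2 domain, best known from pancreatic islets.

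The starts of 3 of the 4 genes are shown because the genes' shared pattern raises the question of what their promoters hold. The sequences of C2cd4a, Cda and Plek2 are from RefSeq (GRCm38.p6). They are printed 5' to 3' on the gene's strand and end at the base before the gene as the count table annotates it, with a TATAAA match in capitals.
C2cd4a, chr9:67832331-67832580, minus strand: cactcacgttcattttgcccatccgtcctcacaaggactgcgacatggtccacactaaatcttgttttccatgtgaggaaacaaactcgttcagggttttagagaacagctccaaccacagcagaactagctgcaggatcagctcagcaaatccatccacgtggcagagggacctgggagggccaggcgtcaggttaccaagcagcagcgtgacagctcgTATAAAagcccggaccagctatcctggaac
Cda, chr4:138367993-138368205, minus strand: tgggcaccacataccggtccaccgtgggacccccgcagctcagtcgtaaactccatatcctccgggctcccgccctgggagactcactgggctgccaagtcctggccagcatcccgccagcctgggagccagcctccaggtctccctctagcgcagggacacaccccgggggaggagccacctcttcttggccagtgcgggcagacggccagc
Plek2, chr12:78906965-78907188, minus strand: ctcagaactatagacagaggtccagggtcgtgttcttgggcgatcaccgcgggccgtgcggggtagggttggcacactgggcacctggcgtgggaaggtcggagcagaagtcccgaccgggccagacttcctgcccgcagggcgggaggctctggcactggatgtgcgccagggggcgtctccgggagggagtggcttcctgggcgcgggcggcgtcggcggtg
These 3 promoters were unlike in composition. GC content over the 250 bases before the RefSeq start was 52.8% for C2cd4a, 68% for Cda and 70% for Plek2, against a median of 52.4% over 32851 promoters of the same length. CpG dinucleotides numbered 9, 14 and 23 in that order, against a median of 6. Neither the STAT motif TTCNNNGAA, nor the GATA motif AGATAA, nor the KLF motif CCACACCC was found on either strand in any of the 3 windows. These motifs were present in 7.02%, 9.99% and 3.2% of all promoters. The TATAAA of C2cd4a lies 30 bases before the start, and 12.4% of all promoters held that motif on 1 strand or the other. A missing match says only that these letters are not in this window.

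The libraries held 16198011 to 19196283 counts. Levels are given in CPM, counts scaled to library size with TMM factors, as mean ± SD. Asxl1, the targeted gene, was read at 96.4 ± 3.61 CPM in Asxl1-/-Jak2V617F, 157 ± 34.4 CPM in Jak2V617F, 93.0 ± 5.66 CPM in Asxl1-/- and 162 ± 1.41 CPM in WT, so it was lower in both genotypes that lack it but not at 0. Kit, the gate, was between 218.8 and 338.3 CPM in all 11 libraries. Mean Jak2 levels were 77.0 ± 5.93 CPM for WT, 101 ± 2.22 for Asxl1-/-, 126 ± 3.95 for Jak2V617F and 92.2 ± 5.64 for Asxl1-/-Jak2V617F. By edgeR's quasi-likelihood test Jak2 fell with Asxl1 loss on the Jak2V617F background (log2 change -0.45 ± 0.08 (SE), adjusted p = 0.000638). It rose from WT to Jak2V617F (0.71 ± 0.08, edgeR adjusted p = 1.84e-05) and to Asxl1-/- (0.40 ± 0.09, edgeR adjusted p = 0.00955). Its bearing on the 4 genes was not tested. Reads of Y-linked genes were present in both Asxl1-/- libraries and in Jak2V617F 2, while the other 8 libraries had Xist, so every WT library differed in sex from both Asxl1-/- libraries.

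Podxl (ENSMUSG00000025608, mm10 chromosome 6, 31519488 to 31563981, minus strand) was the most abundant of the 4. It had 93.7, 113 and 166 CPM in the Asxl1-/-Jak2V617F libraries, 413, 309.7 and 368 CPM in the Jak2V617F libraries, 9.74 and 8.37 CPM in Asxl1-/-, and 1.68, 2.59 and 6.15 CPM in WT. Every carrier library was above every other library, every Jak2V617F library was above every Asxl1-/-Jak2V617F library, and WT 3 was the highest of the WT libraries. The mean of Asxl1-/-Jak2V617F was 35.7 times the WT mean and 13.7 times the Asxl1-/- mean, and the mean of Jak2V617F was 105 times the WT mean. These ratios are how the gene was picked and are given as a description only, for Podxl and for the others.

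C2cd4a (ENSMUSG00000047990, chromosome 9, 67830489 to 67832330, minus strand) had 17.7, 13.0 and 15.8 CPM in Asxl1-/-Jak2V617F, 38.6, 38.3 and 53.3 CPM in the Jak2V617F libraries, 0.758 and 0.465 CPM in Asxl1-/-, and 0.112, 0.338 and 0.241 CPM in WT. The 4 genotypes did not overlap, and replicates within a carrier genotype lay close together. Its WT values rest on 2, 6 and 4 reads, and 2 reads have an exact 95% Poisson interval of 0.242 to 7.22 that covers counting error only. The Asxl1-/-Jak2V617F mean was 67.3 times the WT mean and 25.3 times the Asxl1-/- mean, and the Jak2V617F mean was 188 times the WT mean.

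Cda (ENSMUSG00000028755, chromosome 4, 138338424 to 138367992, minus strand) had 6.40, 5.21 and 8.67 CPM in Asxl1-/-Jak2V617F, 12.9, 14.1 and 22.3 CPM in the Jak2V617F libraries, 0.350 and 0.755 CPM in Asxl1-/-, and 0.559, 0.225 and 0.301 CPM in WT. Carriers again stood apart from the rest, whereas Asxl1-/- and WT overlapped. The non-carrier values rest on 6 and 13 reads in Asxl1-/- and on 10, 4 and 5 reads in WT. The Asxl1-/-Jak2V617F mean was 18.7 times the WT mean and 12.2 times the Asxl1-/- mean, and the Jak2V617F mean was 45.4 times the WT mean.

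Plek2 (ENSMUSG00000021118, chromosome 12, 78888691 to 78906964, minus strand) had 2.30, 2.75 and 7.88 CPM in Asxl1-/-Jak2V617F, 18.6, 14.3 and 13.6 CPM in the Jak2V617F libraries, 0.467 and 0.523 CPM in Asxl1-/-, and 0.224, 0.338 and 0.121 CPM in WT. Asxl1-/-Jak2V617F 3 stood above the other 2 libraries of its genotype, though still below every Jak2V617F library. That library was also the highest of its genotype for Podxl and Cda, but not for C2cd4a. The Asxl1-/-Jak2V617F mean of Plek2 was 18.9 times the WT mean and 8.71 times the Asxl1-/- mean, and the Jak2V617F mean was 68.0 times the WT mean.

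**Figure D1:**
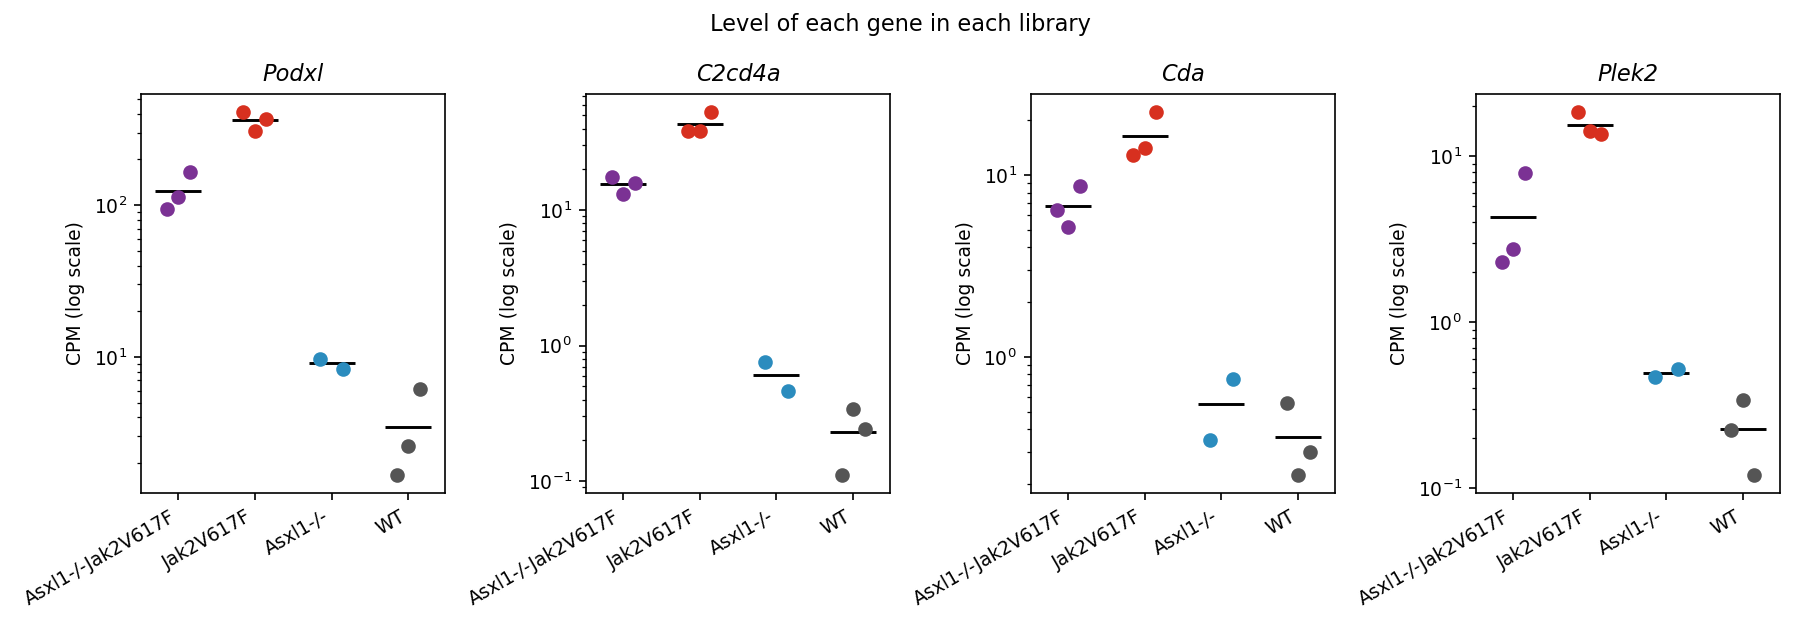
Level of Podxl, C2cd4a, Cda and Plek2 in each of the 11 libraries, in CPM on a log axis. Points are libraries, bars are genotype means. In every panel the 6 carrier libraries lie above the other 5, and the 3 Asxl1-/-Jak2V617F libraries lie below the 3 Jak2V617F libraries.

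Per kilobase of transcript, which allows levels of different genes to be compared, the order was Podxl, C2cd4a, Cda, Plek2 in both carrier genotypes. In Asxl1-/-Jak2V617F the means were 22.6, 11.1, 6.53 and 2.72 CPM per kb in that order, and in Jak2V617F they were 66.2, 31.1, 15.9 and 9.77. Podxl was thus the highest of the 4, and Plek2 the lowest. In Asxl1-/- all 4 were at or below 1.65 CPM per kb, and in WT at or below 0.633. The coefficient of variation between the 3 Asxl1-/-Jak2V617F libraries was 15.0% for C2cd4a, 26.1% for Cda, 30.2% for Podxl and 71.9% for Plek2. Between the 3 Jak2V617F libraries it was 14.3% for Podxl, 17.5% for Plek2, 19.7% for C2cd4a and 31.1% for Cda.

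Loss of Asxl1 on the Jak2V617F background was a contrast that did not pick the genes. All 4 fell in Asxl1-/-Jak2V617F against Jak2V617F, and for each of them all 3 Asxl1-/-Jak2V617F libraries were below all 3 Jak2V617F libraries. The ratio of the means was 0.341 for Podxl, 0.357 for C2cd4a, 0.411 for Cda and 0.279 for Plek2. By edgeR's quasi-likelihood test the log2 change was -1.55 ± 0.32 (SE) for Podxl (adjusted p = 0.00395) and -1.49 ± 0.20 for C2cd4a (adjusted p = 0.000119). It was -1.28 ± 0.31 for Cda (adjusted p = 0.00564) and -1.85 ± 0.41 for Plek2 (adjusted p = 0.00338), adjusted over 16262 genes. Calls in this contrast were common: 44.3% of the genes tested passed, 19.8% lower and 24.5% higher. The genes had also been named for their large rise in Jak2V617F against WT, so the Jak2V617F libraries took part in both their choice and this test.

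On the background without Jak2V617F, loss of Asxl1 went with higher means of all 4 genes at very low levels. In Asxl1-/- against WT, 22.5% of the genes tested passed, 11.3% higher and 11.2% lower. C2cd4a had a log2 difference of 1.38 ± 0.45 (edgeR adjusted p = 0.0449) on 13 and 8 reads in Asxl1-/- and 2, 6 and 4 in WT. In these 5 libraries alone C2cd4a and Plek2 would not pass the filter on low counts, which they passed through the carriers, so neither value is read as a change. Podxl had a log2 difference of 1.396 ± 0.46 (edgeR adjusted p = 0.0571), with both Asxl1-/- libraries above all 3 WT libraries. Plek2 had 1.09 ± 0.72 (edgeR adjusted p = 0.297), also without overlap, and Cda 0.60 ± 0.53 (edgeR adjusted p = 0.443), with overlap. Sex cannot be told apart from genotype between these 5 libraries. With a sex term, which rests on Jak2V617F 2 alone, C2cd4a was past the threshold no longer (log2 difference 1.65, edgeR adjusted p = 0.103), nor was it without any of Asxl1-/- 1, Asxl1-/- 2, Asxl1-/-Jak2V617F 3, Jak2V617F 1, WT 1 or WT 3.

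The difference between these effects of Asxl1 loss was tested as an interaction, carriers minus non-carriers. It was -2.95 ± 0.56 on the log2 scale for Podxl (edgeR adjusted p = 0.00323), -2.87 ± 0.49 for C2cd4a (edgeR adjusted p = 0.00102), -1.88 ± 0.62 for Cda (edgeR adjusted p = 0.0292) and -2.93 ± 0.83 for Plek2 (edgeR adjusted p = 0.0154). Of all genes tested 41.6% passed for the interaction, 17.9% with a negative and 23.7% with a positive value. The genotype order of the means, Jak2V617F, Asxl1-/-Jak2V617F, Asxl1-/-, WT from high to low, was the same for the 4 genes, but the last step was within the spread for Cda. The interaction draws on the carrier libraries the genes were picked from, and for C2cd4a, Cda and Plek2 on at most 13 reads in any non-carrier library. C2cd4a and Plek2 passed the filter only through the carriers. The interaction p-values of the 4 genes are therefore a description and no independent support. Cda's call was lost with a sex term (-2.30, edgeR adjusted p = 0.0878) and without any of Asxl1-/- 2, Asxl1-/-Jak2V617F 2, Jak2V617F 3, WT 2 or WT 3 (weakest without Asxl1-/- 2, -1.23, edgeR adjusted p = 0.251). Plek2's call was lost with a sex term (-3.16, edgeR adjusted p = 0.0868) and without either Asxl1-/- library (edgeR adjusted p = 0.0522 and 0.0627).

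How far the carriers stood from the rest was measured as the gap, log2 of the lowest carrier CPM over the highest other CPM, each plus 0.5. The lowest carrier library was 17.2 times the highest other library for C2cd4a, 9.61 times for Podxl, 6.89 times for Cda and 4.4 times for Plek2, which gave gaps of 3.43, 3.20, 2.18 and 1.45. Of 12066 genes with a mean of 2 CPM or more, 373 (3.09%) had every carrier above every other library, and 551 (4.57%) every carrier below. The 4 genes were picked for being high in the carriers, so their ranks by gap restate that choice and are a description only. They had the 4 widest gaps among protein-coding genes. Just outside was Sfrp4, a secreted Wnt antagonist, with a gap of 1.42. Then came Pmaip1, which encodes the cell death protein Noxa, with 1.13, and Fabp5, a fatty acid-binding protein, with 0.88. Fam124a (0.68), Erfe (0.64), which encodes the erythroblast hormone erythroferrone, and the prostaglandin E2 receptor gene Ptger3 (0.53) completed the first 10. Among all biotypes, Tcrg-C1, a T cell receptor constant segment, stood between Cda and Plek2 with 1.93.

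**Figure D2:**
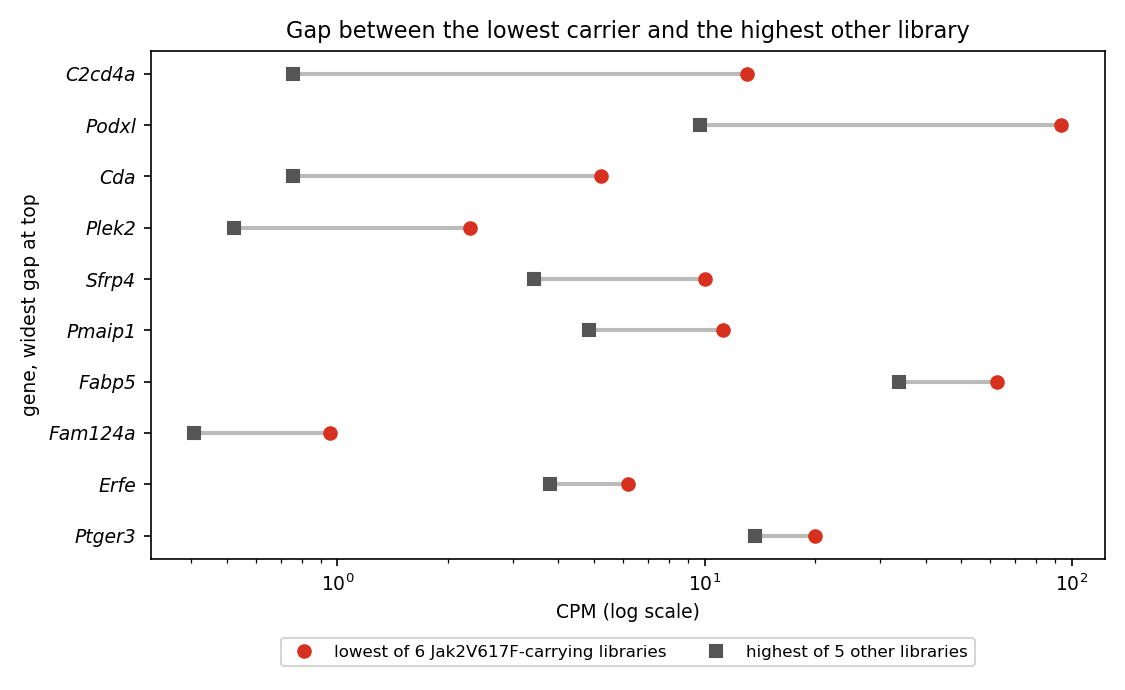
The 10 protein-coding genes with the widest gap, ordered from the top. Circles are the lowest of the 6 libraries that carry Jak2V617F, squares the highest of the other 5, in CPM on a log axis. C2cd4a, Podxl, Cda and Plek2 have the widest gaps, from 3.43 to 1.45 on the log2 scale, and Sfrp4 follows at 1.42.

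The lower level in Asxl1-/-Jak2V617F than in Jak2V617F was not shared by all genes of this pattern. Of the 373 genes, 221 had all Asxl1-/-Jak2V617F libraries below all Jak2V617F libraries, 2 had them above, and 150 overlapped. The share of such genes over the whole table was not computed. By edgeR's quasi-likelihood test 169 of the 373 fell and 0 rose in that contrast, where 19.8% of all genes tested fell and 24.5% rose. The median log2 change was -0.22, against -0.01 over all genes tested. These genes were set apart by the same carrier libraries, so the counts are a description. Sfrp4 followed the 4 genes, with means of 14.5 CPM in Asxl1-/-Jak2V617F, 42.2 in Jak2V617F, 3.35 in Asxl1-/- and 2.44 in WT. Pmaip1 had 28.4 CPM in Asxl1-/-Jak2V617F, 21.0 in Jak2V617F, 3.26 in Asxl1-/- and 3.58 in WT, so its carrier means stood in the other order. Ptger3 had 22.1, 32.05, 12.6 and 5.99 CPM in the same genotype order, a smaller step between carriers and the rest.

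Likeness of pattern was measured as Pearson's r of log2 CPM over the 11 libraries, among 10994 protein-coding genes with a mean of 2 CPM or more. The 11 points share the 4 genotypes, so r mainly repeats the genotype means, and it is given as a description. Among themselves the 4 genes had r from 0.961 to 0.986, the closest pair being Podxl and C2cd4a, each of which was the other's nearest gene. Cda had r = 0.973 to C2cd4a and 0.971 to Fabp5. For Plek2 they were Fabp5 with 0.994, Fam124a with 0.977 and Erfe with 0.971. Fabp5 had means of 85.8 CPM in Asxl1-/-Jak2V617F, 157 in Jak2V617F, 32.8 in Asxl1-/- and 26.5 in WT. Erfe had 7.90, 27.1, 3.26 and 1.73 CPM in that order. The measure ignores size: Api5, an apoptosis inhibitor with r = 0.972 to Podxl, had means of 315 CPM in Asxl1-/-Jak2V617F, 325 in Jak2V617F, 281 in Asxl1-/- and 259 in WT.

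No annotated gene overlaps any of them, so no reads are shared with an overlapping gene. Of the 3 nearest protein-coding genes on each side, 24 in all, 19 passed the filter. In Asxl1-/-Jak2V617F against WT 3 of the 19 rose and 0 fell by edgeR's test, in a contrast where 15.1% of all genes tested passed, 8.3% higher and 6.76% lower. The 3 were Eif2s1, a translation initiation factor 1681 bases from Plek2 (0.57 ± 0.09 log2), Ddost of the oligosaccharyltransferase near Cda (0.56 ± 0.12) and Chchd3 of the mitochondrial inner membrane near Podxl (0.40 ± 0.11). Vps13c, a lipid transfer protein 8066 bases from C2cd4a, had means of 209 CPM in Asxl1-/-Jak2V617F, 377 in Jak2V617F, 98.0 in Asxl1-/- and 150 in WT. It fell in Asxl1-/-Jak2V617F against Jak2V617F (-0.85 ± 0.15, edgeR adjusted p = 0.000803) and rose in Jak2V617F against WT (1.33 ± 0.15, edgeR adjusted p = 2.71e-05). Over the 19 neighbours 5 rose and 6 fell in Asxl1-/-Jak2V617F against Jak2V617F, near the 24.5% of all genes tested that rose and 19.8% that fell. In Jak2V617F against WT, 5 of them rose and 9 fell, where 53.5% of all genes tested passed, 24.4% higher and 29.2% lower. Some moved against the 4 genes: Kif17, a kinesin gene 36457 bases from Cda, rose in Asxl1-/-Jak2V617F against Jak2V617F (2.82 ± 0.21) and fell in Jak2V617F against WT (-3.12 ± 0.21), and Tmem229b, 54831 bases from Plek2, had 1.46 ± 0.09 and -1.46 ± 0.09 in these comparisons. Mkln1, 2677 bases from Podxl, had means between 79.7 and 112 CPM. It fell in Asxl1-/-Jak2V617F against Jak2V617F (-0.32 ± 0.09) and rose in Jak2V617F against WT (0.24 ± 0.09), the directions of Podxl. Eif2s1 had -0.30 ± 0.09 and 0.86 ± 0.09 in these comparisons, the directions of Plek2. Pink1, 12117 bases from Cda, had means between 34.3 and 61.9 CPM and moved against Cda (0.71 ± 0.20 and -0.71 ± 0.20). Each of these changes passed the threshold by edgeR's test.

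Relatives of Podxl did not move with it. Cd34, its closest relative among the genes tested and a stem and progenitor cell marker, had means of 141 CPM in Asxl1-/-Jak2V617F, 18.04 in Jak2V617F, 202 in Asxl1-/- and 135 in WT. On the log2 scale it rose by 2.97 ± 0.17 between Asxl1-/-Jak2V617F and Jak2V617F (edgeR adjusted p = 3.91e-07) and fell by 2.91 ± 0.17 in Jak2V617F against WT (edgeR adjusted p = 3.89e-07), both opposite in sign to Podxl. The third member, Podxl2, was at most 0.355 CPM in any genotype mean and was not tested. Of 11 tested sialomucins and membrane-cytoskeleton linkers, 0 rose and 0 fell in Asxl1-/-Jak2V617F against WT, where 8.3% of all genes tested rose and 6.76% fell. Their median log2 difference was 0.03, against -0.02 over all genes. In Jak2V617F against WT, where 53.5% of all genes tested passed, 24.4% higher and 29.2% lower, 2 of the 11 rose and 9 fell. The 2 were Cd24a (0.80 ± 0.11) and the linker radixin, Rdx (0.30 ± 0.07), while the other linkers Ezr (-0.30 ± 0.06), Msn (-0.52 ± 0.08) and Slc9a3r1 (-1.04 ± 0.10), which binds the podocalyxin tail, fell.

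C2cd4a was the only gene of its family with more than stray reads. C2cd4b, 69559 bases away on the same chromosome, had 0 counts in all 11 libraries, and C2cd4c and C2cd4d had genotype means of at most 0.0291 and 0.0201 CPM.

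Genes of the pyrimidine pathways moved in both directions. Of 24 tested genes of pyrimidine salvage and breakdown, 2 rose and 2 fell in Asxl1-/-Jak2V617F against WT, against 15.1% of all genes called. The kinase Uck2 (0.57 ± 0.11) and the nucleotidase Nt5c (0.33 ± 0.09) rose, and Tk2 (-0.48 ± 0.11) and Uckl1 (-0.45 ± 0.11) fell. In Jak2V617F against WT 14 of the 24 passed, near the 53.5% of all genes, with 9 higher and 5 lower, among them the nucleoside transporter Slc29a1 (1.159 ± 0.15) and the dUTPase gene Dut (0.93 ± 0.15), both higher. Of the 24 genes, 3 rose and 3 fell in Asxl1-/-Jak2V617F against Jak2V617F, where 24.5% of all genes tested rose and 19.8% fell. In the same contrast 1 of 10 genes of pyrimidine synthesis rose and 4 fell. The uridine phosphorylase gene Upp1 (2.45 ± 0.42) and the CTP synthase gene Ctps2 (1.36 ± 0.13) of the synthesis list rose, opposite in sign to Cda. Dut (-0.59 ± 0.15) and the nucleotidase gene Nt5c2 (-0.36 ± 0.07) fell, as Cda did. Dck, the kinase that competes with Cda for deoxycytidine, had 124 CPM in Asxl1-/-Jak2V617F, 127 in Jak2V617F, 139 in Asxl1-/- and 135 in WT, and did not pass in Asxl1-/-Jak2V617F against Jak2V617F or WT, in Jak2V617F against WT or in Asxl1-/- against WT. Of 10 genes of pyrimidine synthesis, 4 rose and 0 fell in Asxl1-/-Jak2V617F against WT, namely Cad (0.56 ± 0.12), Ctps (0.51 ± 0.11), Umps (0.43 ± 0.09) and Nme1 (0.64 ± 0.15), whose reads can be split with its near-identical copy Nme2. Of 7 other members of the cytidine deaminase superfamily 0 rose and 0 fell in that contrast. Apobec3, the most abundant, had 210 CPM in Asxl1-/-Jak2V617F, 231 in Jak2V617F, 205 in Asxl1-/- and 177 in WT.

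The other pleckstrin, Plek, ran against Plek2. Its means were 68.9 CPM in Asxl1-/-Jak2V617F, 43.2 in Jak2V617F, 88.5 in Asxl1-/- and 101 in WT. It rose in Asxl1-/-Jak2V617F against Jak2V617F (0.67 ± 0.20, edgeR adjusted p = 0.0217) and fell in Jak2V617F against WT (-1.23 ± 0.21, edgeR adjusted p = 0.000553). Of the 22 tested genes of pleckstrin and actin turnover, 16 fell and 2 rose in Jak2V617F against WT, where 29.2% of all genes fell and 24.4% rose, with a median log2 change of -0.88 against -0.05 over all genes. Those that fell included destrin, Dstn (-2.24 ± 0.17), and the small GTPase gene Rac2 (-2.31 ± 0.15), and those that rose were the cofilin phosphatase gene Ssh1 (0.72 ± 0.14) and the red cell tropomodulin gene Tmod1 (2.34 ± 0.59). Against WT, 0 rose and 4 fell in Asxl1-/-Jak2V617F, namely Cfl2, Ssh1, Ssh2 and Ssh3, by 0.50 to 0.72 on the log2 scale, where 6.76% of all genes fell.

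Of 23 tested genes of JAK-STAT and erythropoietin response, 5 rose and 0 fell in Asxl1-/-Jak2V617F against WT, where 8.3% of all genes rose and 6.76% fell, with a median of 0.21 against -0.02 over all genes. They were the feedback inhibitor gene Socs3 (2.10 ± 0.49), the cytokine gene Osm (1.53 ± 0.32), the kinase gene Pim1 (1.44 ± 0.21), the transferrin receptor gene Tfrc (1.26 ± 0.25) and the cyclin gene Ccnd2 (0.36 ± 0.09). In Jak2V617F against WT 9 rose and 5 fell, a share near the 53.5% of all genes called, with a median of 0.36, and the feedback inhibitor gene Cish (1.28 ± 0.25) was among those that rose. Its means were 7.005 CPM in Asxl1-/-Jak2V617F, 11.04 in Jak2V617F, 3.43 in Asxl1-/- and 4.55 in WT. Of the 23 genes, 8 rose and 5 fell in Asxl1-/-Jak2V617F against Jak2V617F, where 24.5% of all genes tested rose and 19.8% fell. Their median log2 change was 0.04, against -0.01 over all genes. Socs3, Pim1 and Osm rose in this contrast by 1.35 ± 0.47, 1.10 ± 0.21 and 1.45 ± 0.32, while Podxl, C2cd4a, Cda and Plek2 fell. Tfrc, which fell by 0.74 ± 0.25 (edgeR adjusted p = 0.0329) in that contrast, had the genotype order of the 4 genes with means of 775, 1297, 422 and 323 CPM in Asxl1-/-Jak2V617F, Jak2V617F, Asxl1-/- and WT.

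Erythroid genes were higher in Jak2V617F, while in Asxl1-/-Jak2V617F their summed level lay near that of WT. Of 26 erythroid genes, 23 rose and 1, Nfe2, fell in Jak2V617F against WT, where 24.4% of all genes rose and 29.2% fell, with a median log2 change of 1.58. Between Asxl1-/-Jak2V617F and Jak2V617F 1, again Nfe2, rose and 23 fell, where 24.5% of all genes rose and 19.8% fell, with a median of -1.56. Between Asxl1-/-Jak2V617F and WT, Tfrc rose and 0 fell, where 8.3% of all genes rose and 6.76% fell, with a median of 0.08. The summed level of the erythroid list was 3451, 3589 and 5651 CPM in Asxl1-/-Jak2V617F, 12130, 11472 and 10097 CPM in the Jak2V617F libraries, 4748 and 4185 CPM in Asxl1-/-, and 4787, 2870 and 3915 CPM in WT. Asxl1-/-Jak2V617F thus overlapped WT and Asxl1-/-, and Asxl1-/-Jak2V617F 3, the highest for Podxl, Cda and Plek2, was also the highest of its genotype for this sum. In Asxl1-/-Jak2V617F against Asxl1-/- 0 of the 26 rose and 1 fell, where 5.53% of all genes tested passed, 3.31% higher and 2.22% lower. In bulk RNA, fewer cells of a type and less RNA per cell cannot be told apart.

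**Figure D3:**
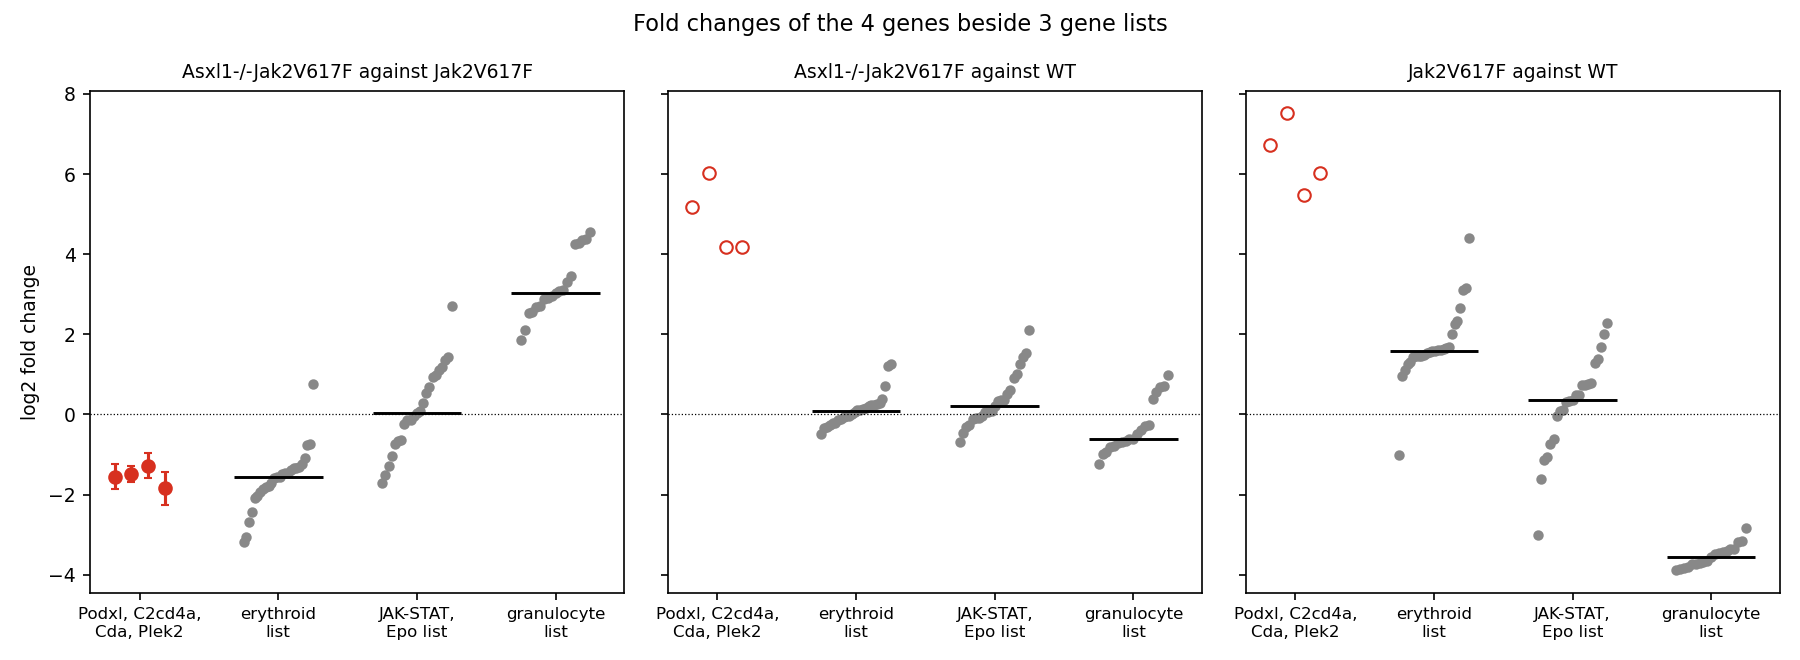
Log2 fold change of Podxl, C2cd4a, Cda and Plek2 (red circles, left to right) beside each tested gene of the erythroid, JAK-STAT and granulocyte lists (grey points, line at the median) in 3 comparisons. Filled circles have bars of ± SE, and open circles, without bars, stand in the comparisons the genes were picked from and support nothing. In Asxl1-/-Jak2V617F against Jak2V617F the 4 genes lie within the range of the erythroid list.

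Each gene was also set against the erythroid sum of its own library, a scale chosen after the values were seen and given without a test. Podxl then had 27.1, 31.4 and 29.3 CPM per 1000 erythroid CPM in Asxl1-/-Jak2V617F, 34.1, 26.99 and 36.4 in Jak2V617F, 2.05 and 2.00 in Asxl1-/-, and 0.351, 0.903 and 1.57 in WT. The carrier genotypes overlapped on this scale and still stood apart from the other 5 libraries. C2cd4a had means of 3.85 ± 1.18 in Asxl1-/-Jak2V617F, 3.93 ± 1.17 in Jak2V617F, 0.135 in Asxl1-/- and 0.0676 in WT. Cda had 1.61 ± 0.213, 1.501 ± 0.619, 0.127 and 0.0908 in the same order. Both overlapped between the carrier genotypes. Plek2 had 0.942 ± 0.395 in Asxl1-/-Jak2V617F, 1.37 ± 0.146 in Jak2V617F, 0.112 in Asxl1-/- and 0.0651 in WT, and only Asxl1-/-Jak2V617F 3, with 1.39, reached the Jak2V617F range of 1.24 to 1.53. Without the 4 globin genes the Podxl means were 30.1 in Asxl1-/-Jak2V617F and 34.1 in Jak2V617F. The gene Car2 made up 21.2% of the list's signal, Tfrc 12% and Car1 11.8%.

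**Figure D4:**
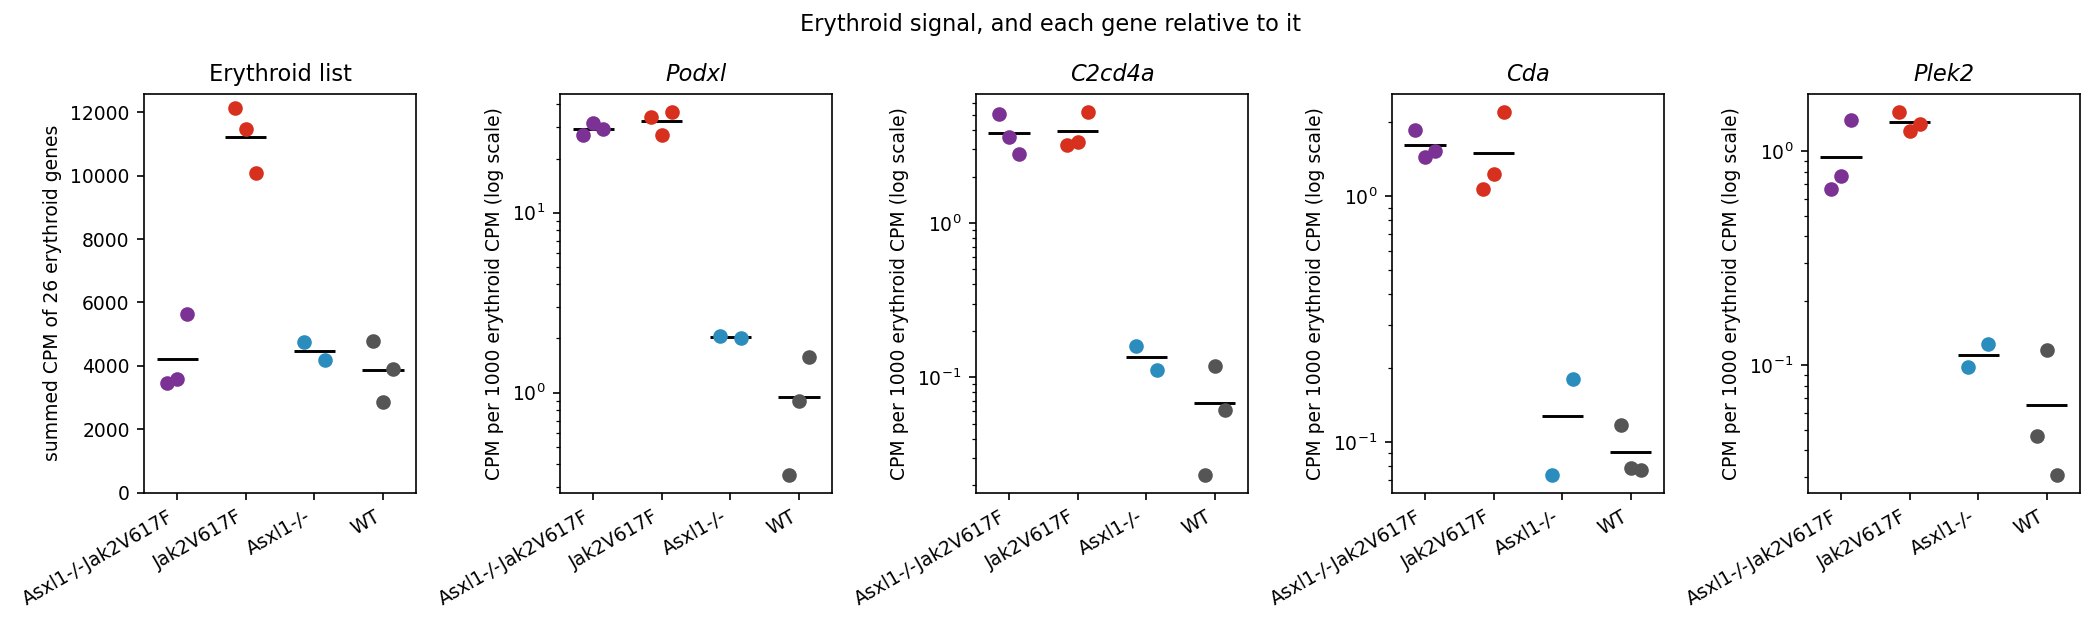
Left, summed CPM of the 26 erythroid genes in each library. Right, CPM of each of the 4 genes per 1000 of that sum, on log axes, with a bar at the genotype mean. The erythroid sum of Asxl1-/-Jak2V617F overlaps that of Asxl1-/- and WT, and on the relative scale Podxl, C2cd4a and Cda overlap between the carrier genotypes.

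Other cell types that express podocalyxin were sought in the same libraries. The podocyte genes Nphs1 and Wt1 had 0 and 1 counts over all 11 libraries. Of the endothelial genes, Cdh5, Cldn5 and Sox17 reached at most 2.80, 1.07 and 0.337 CPM in any library. Pecam1, Egfl7, Tie1 and Vwf, some of which blood cells also express, reached 67.8, 29.1, 21.5 and 19.5 CPM. Stab2, Plvap and Flt1 reached 16.9, 13.3 and 12.5 CPM, with reads in every library. The summed endothelial list of 17 genes was 106 to 139 CPM in Asxl1-/-Jak2V617F, 79.8 to 85.0 in Jak2V617F, 137 to 151 in Asxl1-/- and 136 to 147 in WT. Every Jak2V617F library was below every WT library, and Asxl1-/-Jak2V617F overlapped WT. Granulocyte genes summed to 44118 to 53369 CPM in Asxl1-/-Jak2V617F, 2814 to 6652 in Jak2V617F, 73661 to 74609 in Asxl1-/- and 48826 to 67061 in WT. All 19 tested granulocyte genes rose in Asxl1-/-Jak2V617F against Jak2V617F (median 3.04, against -0.01 over all genes), where 24.5% of all genes tested rose. They all fell in Jak2V617F against WT (median -3.55, against -0.05 over all genes), where 29.2% of all genes tested fell. The part of this shift in the values of Podxl, C2cd4a, Cda and Plek2 was not tested.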

How the data were processed

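RNA was sequenced from c-kit+ bone marrow cells in 11 libraries. The authors deposited raw read counts per Ensembl gene, 54532 genes, with mm10 coordinates and gene lengths, per the file headers. Among the tools in the submitters' processing notes are featureCounts 1.5.0-p3 and HISAT2 2.0.5. Whether reads were counted by strand, and with which annotation, is not given in the sources used here. Chromatin samples were not analysed here.

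The filter filterByExpr by group kept 16262 genes. edgeR 4.0.16 in R 4.3.3 was run with TMM scaling, robust quasi-likelihood dispersion and genotype as the only factor, on all libraries together. P-values were adjusted by Benjamini-Hochberg across the 16262 genes, and 0.05 was the threshold. SE is the absolute log2 change over the square root of F.

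The 4 genes and the gene lists were chosen with earlier results of these data known. Named genes are the 4, their paralogs, their 3 nearest protein-coding genes on each side, the 10 widest gaps, the 5 highest r per gene, and up to 4 genes per list with the smallest adjusted p. Genes of a list beyond those are named for their role and were chosen after their values were seen. Some genes that this rule takes are left out of the text. A ratio of means that the choice of genes used has no test.

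The chi-square of counts between replicates was 7.75 to 33.1 per degree of freedom, so none was merged. Nothing in the labels says that replicates are separate animals, so the p-values reflect spread between these samples only, which could be technical. Same-numbered libraries deviated with r of -0.199 to 0.174, so the numbers do not pair them. Alternatives were median-of-ratios scaling, DESeq2 1.42.0, no filter or a stricter one (CPM of 1 in 3 libraries), the compared groups alone, a replicate block, a sex term, other pseudocounts and minimum levels for the gap, and leaving out each library.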

Additional observations from a re-analysis of the deposited data

Results flagged for a closer look

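Flagged was the difference between the effect of Asxl1 loss with and without Jak2V617F, by edgeR's quasi-likelihood test. The interaction was -2.95 on the log2 scale for Podxl (adjusted p = 0.00323), -2.87 for C2cd4a (adjusted p = 0.00102), -1.88 for Cda (adjusted p = 0.0292) and -2.93 for Plek2 (adjusted p = 0.0154). The carrier libraries in it are those the genes were picked from, so these p-values are a description and no independent support. C2cd4a and Plek2 passed the filter on low counts only through the carriers. The Cda and Plek2 values were no longer past the threshold with a sex term (adjusted p = 0.0878 and 0.0868). Groups of 2 or 3 libraries were not searched for single libraries that stand apart.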

How the results depend on the processing

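The fall of Podxl, C2cd4a, Cda and Plek2 in Asxl1-/-Jak2V617F against Jak2V617F kept its direction and its side of the threshold in 72 of 72 alternatives. Some of these left out an Asxl1-/- or WT library, which is not in the contrast and bears mainly on the estimated spread. The Jak2V617F libraries also took part in the choice of the genes, which no alternative changes. The other member results were less firm. For Asxl1-/- against WT, C2cd4a was 1.65 with a sex term (adjusted p = 0.103) and 1.004 to 1.77 with 1 library left out. Podxl passed with DESeq2 (1.39, adjusted p = 0.0277) and with the stricter filter (1.42, adjusted p = 0.0453), and ranged from 1.09 to 2.08 with 1 library left out (passing without Asxl1-/-Jak2V617F 3 and without WT 3). Cda ranged from -0.047 without Asxl1-/- 2, where the sign turned (adjusted p = 0.974), to 1.08. The interaction with a sex term was -2.30 for Cda and -3.16 for Plek2, and with 1 library left out it was -2.38 to -1.23 for Cda and -3.70 to -2.63 for Plek2. With the replicate number as a replicate block, Podxl in Asxl1-/- against WT was 1.66 (adjusted p = 0.0273), and 585 genes passed in Asxl1-/-Jak2V617F against Asxl1-/-. The block changed no other member call. The cause of these changes was not tested.

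Counts over all genes moved more. In Asxl1-/- against WT 3664 genes passed, 502 with a sex term and 288 to 4376 with 1 library left out. In Asxl1-/-Jak2V617F against Asxl1-/- 899 passed, 1472 with DESeq2, 52 with a sex term and 86 to 952 with 1 library left out. For Asxl1-/-Jak2V617F against WT 2449 passed, 531 to 3493 with 1 library left out. For the interaction 6764 passed, 3079 with a sex term and 4483 to 7016 with 1 library left out. Genes with every carrier above every other library numbered 373, and 378 to 673 with 1 library left out. The interaction was not refitted on the compared groups alone, since all 4 genotypes enter it. Low counts limit Cda, C2cd4a and Plek2 in Asxl1-/- and WT, where no library had more than 13 reads of any of them.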
